A study of Mus musculus with 16 samples.

Results

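Cells of the mouse heart sorted for stem cell antigen 1 (Sca1) were set against mesenchymal stem cells (MSC) of the bone marrow. The members are the 6 arrays whose titles name these populations, 3 for each, out of 16 arrays in the series, and all 17710 named genes were compared. The heart Sca1 cells came from C57BL/6 mice of normal genotype and were sorted by flow cytometry as positive for Sca1 and negative for CD45, an antigen of all leukocytes, and CD31, an endothelial antigen. The MSC came from mice of the same strain and genotype and were harvested after 5 passages in culture. The other 10 arrays held heart c-kit cells (3), heart side population cells (2), cardiomyocytes (2) and marrow c-kit cells (3). A growth protocol of Matrigel-coated dishes and mTeSR medium is given for all samples alike. Organ, sorting and passage in culture differ together between heart Sca1 cells and MSC and cannot be told apart. The labels name no animals or cultures behind the replicates. A p-value here sets a difference against the scatter of all 16 arrays within their 6 groups, and part of that scatter may be technical. In bulk samples, fewer cells of a type and less RNA per cell cannot be told apart.

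Sca1-positive cells of the adult heart that lack CD45 and CD31 overlap with its interstitial fibroblasts, which descend from the epicardium and are known for the transcription factor Tcf21, the receptor Pdgfra and a matrix of collagens and small proteoglycans. Marrow MSC are cultured stromal cells that stick to plastic and can form bone, cartilage and fat. Macrophages of mouse marrow also stick to plastic, and they are known by CD45, the colony stimulating factor receptor Csf1r, the chemokine receptor Cx3cr1, complement C1q and receptors for antibodies.

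Heart Sca1 cells and MSC differed in fibroblast identity, matrix, blood cell, cell division and Hox genes. Heart Sca1 cells were higher in the genes of heart fibroblasts, in matrix and proteoglycan genes and in immediate early genes. The arrays labelled MSC were higher in 24 of 28 macrophage genes, in 15 of 23 genes of mitosis and in 7 of 24 Hox genes. Of 18 bone, cartilage and fat genes they were higher in 4, Spp1 and Ibsp among them, and lower in 1, and that list's median difference was -0.18. limma called 1825 of 17710 genes (10.3%) after Benjamini-Hochberg adjustment, at a threshold of 0.05. Of these, 938 (5.3% of all genes) were higher in heart Sca1 cells and 887 (5.01%) were lower. The median log2 difference, heart Sca1 minus MSC, was 3.76 over the genes called higher and -3.65 over those called lower, against -0.10 over all genes. Differences beyond 4 log2 units in size were found for 407 genes called higher and 382 called lower. Without MSC replicate 1 or 2 or heart Sca1 replicate 2 the count was 1160, 1146 or 1208, and it was 3860 when only the 6 arrays were fitted.

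**Figure D1:**
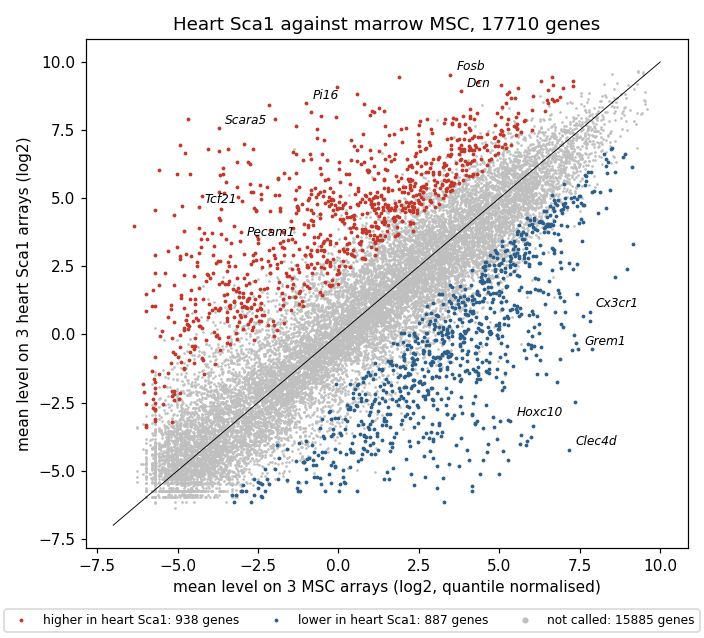
Mean log2 level of each of 17710 genes on the 3 heart Sca1 arrays (vertical axis) and the 3 MSC arrays (horizontal axis), with called genes coloured and the line of equal level in black. The 938 genes above the line and the 887 below it are spread over the whole range of levels, and Scara5, Pi16, Clec4d and Hoxc10 lie far from the line.

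Levels are log2 spot intensities after quantile normalisation, where 0 is about the mean log2 intensity of an array. Values of 3 arrays are given in the order of replicates 1, 2 and 3. A background-like fill value, repeated on 7.54% to 9.01% of probes of the heart Sca1 arrays and 4.52% to 11.3% of probes of the MSC arrays, is named where a gene sits at it. Median intensities were 100 to 109 on the heart Sca1 arrays and 78 to 173 on the MSC arrays. Pearson correlations over genes, which are no independent replicates, were 0.910 to 0.917 between heart Sca1 arrays, 0.935 to 0.942 between MSC arrays and 0.804 to 0.829 across the 2 groups. A difference whose low side lies at intensities of a few units is uncertain in size, since 1 unit there moves the log2 level strongly.

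The antigens used in the sort were read first. Ptprc, which encodes CD45, stood at 0.40, -0.89 and 2.94 in heart Sca1 cells, against 6.71, 7.53 and 6.91 in MSC. In intensities this was 146, 61 and 863 against 13621, 27954 and 12162. The log2 difference was -6.23 ± 0.94 (SE, adjusted p = 0.00073), although a second Ptprc probe gave only -1.71. The groups did not overlap, which held for 42.0% of all genes. Pecam1, which encodes CD31, stood at 1.57, 3.39 and 5.38 in heart Sca1 cells, against -2.69, -2.42 and -4.02 in MSC (6.49 ± 1.12, adjusted p = 0.00193). Kit, the gene of c-kit, was low in both groups, at -1.82, -3.18 and 0.28 in heart Sca1 cells and -1.48, -1.83 and -1.53 in MSC (0.04 ± 0.87, adjusted p = 0.988). Ly6a, which encodes Sca1 itself, is not analysed here.

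The label of the heart Sca1 arrays was checked against fibroblast markers. Scara5, a scavenger receptor that takes up ferritin, had intensities of 20527, 22828 and 17917 in heart Sca1 cells, against 3, 17 and 4 in MSC. Dcn, which encodes the collagen-binding proteoglycan decorin, stood at 8.98, 8.67 and 9.10 in heart Sca1 cells, against 4.57, 4.62 and 2.24 in MSC. Pdgfra, the receptor of platelet-derived growth factor A, had levels of 8.15, 8.37 and 8.27 in heart Sca1 cells and 4.88, 4.88 and 5.49 in MSC, and that difference did not pass (3.18 ± 1.13, adjusted p = 0.0971). All 3 markers were bright on every heart Sca1 array.

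The label of the MSC arrays met with mixed values. Of the usual mesenchymal markers, Cd44 was bright at 7.75, 8.44 and 8.24 in MSC, against 5.52, 5.25 and 4.89 in heart Sca1 cells, and the difference passed (-2.92 ± 0.51, adjusted p = 0.00208). Cd44 also averaged 6.69 in marrow c-kit cells, 6.99 in heart c-kit cells, 5.76 in side population cells and 5.83 in cardiomyocytes. Vcam1, Eng, Nt5e, Pdgfrb, Lepr and Cxcl12 did not pass, at differences of 2.19, 1.32, 1.72, 0.45, 0.22 and -0.60. All of these but Cxcl12 had the higher mean in heart Sca1 cells. Vcam1 had an adjusted p of 0.0508 and intensities of 40877, 43335 and 35934 in heart Sca1 cells. Vcam1, Pdgfrb and Cxcl12 were bright in MSC, with intensities of 7743, 15633 and 9487, of 7863, 8378 and 8041, and of 6979, 14217 and 6278. Eng had 811, 965 and 529 there, and Nt5e and Lepr were dimmer, at 161, 363 and 100 and at 95, 99 and 47. Beside these, Cx3cr1 had intensities of 45, 64 and 2073 in heart Sca1 cells and 39027, 28818 and 17204 in MSC. Csf1r stood at -1.05, at the fill value and at 2.55 in heart Sca1 cells, against 6.59, 6.89 and 5.87 in MSC (-7.90 ± 1.74, adjusted p = 0.0093). These arrays carried macrophage markers that cultured stromal cells are not known for, and they are called MSC here after their label only.

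Heart Sca1 replicate 3 stood apart from replicates 1 and 2. Its mean level over 28 macrophage genes was 1.77, against -0.78 and -0.81 on replicates 1 and 2, and over 23 endothelial genes 4.86 against 1.31 and 2.01. C1qa, a chain of complement C1q, had an intensity of 3337 on it and 9 and 8 on the other two. Cdh5, the cadherin of endothelial junctions, stood at 4.82 on it and at -3.41 and 1.43 on replicates 1 and 2. The mean over 30 fibroblast identity genes was 6.22 on it and 6.10 and 6.11 on the others.

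Genes of heart fibroblasts were higher in heart Sca1 cells. Of 30 measured members of the fibroblast identity list, 19 rose in heart Sca1 cells and none fell, and all 30 log2 differences were positive (median 5.05). Tcf21, a helix-loop-helix factor needed for fibroblasts to form in the developing mouse heart, stood at 4.83, 4.83 and 4.34 in heart Sca1 cells. In MSC it was at the fill value on replicate 1 and at -5.26 and -2.26 on the others, which are intensities of 5 and 12. Its log2 difference was 9.0 ± 1.56 (adjusted p = 0.002). Scara5 rose by 11.29 ± 0.78 (adjusted p = 3.68e-06).

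Further members were as far apart. Tbx20, a T-box factor of the heart, had levels of 5.51, 6.25 and 5.75 in heart Sca1 cells and -2.42, -4.57 and -4.02 in MSC (9.51 ± 1.34, adjusted p = 0.000452). Pi16, a surface peptidase inhibitor of adventitial fibroblasts, had intensities of 47582, 41977 and 28967 in heart Sca1 cells and 54, 95 and 27 in MSC (9.49 ± 0.57), and its adjusted p of 2.7e-06 was the smallest of the comparison. The transcription factor genes Gata6, Hand2, Meox1 and Wt1 also rose, by 5.31 ± 0.68, 4.99 ± 1.12, 8.54 ± 1.49 and 7.11 ± 1.10. Wt1, a factor of the epicardium, was uneven in heart Sca1 cells at 2.83, 1.58 and 5.35, highest on replicate 3, and stood at the fill value, -4.29 and -1.78 in MSC. Gata4 and Tbx18 did not pass, with differences of 1.46 ± 0.85 and 1.06 ± 0.54. Gata4 stood at 3.02, 2.83 and 2.70 in heart Sca1 cells, against 1.23, 1.91 and 1.03 in MSC. Its groups did not overlap, which held for 7444 of all genes (42.0%) and is no sign of a difference by itself.

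**Figure D2:**
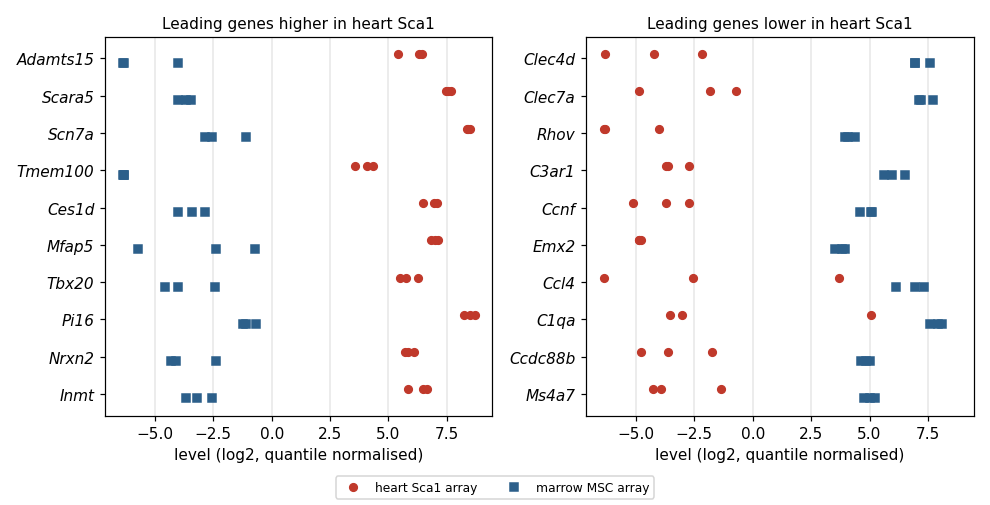
Log2 level on each heart Sca1 array (red circles) and each MSC array (blue squares) for the 10 highest and 10 lowest log2 differences among called genes without fill values or spots near the scanner ceiling. The groups are apart for all 20 genes by choice, since only genes whose groups do not overlap were taken. Ccl4 and C1qa on heart Sca1 replicate 3 lie nearest to the MSC arrays.

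Of 30 collagen and matrix genes, 14 rose in heart Sca1 cells and none fell (median 2.37). Mfap5, a protein of elastic microfibrils, had levels of 7.14, 6.82 and 7.0 in heart Sca1 cells and -0.73, -5.72 and -2.38 in MSC (9.93 ± 1.08, adjusted p = 6.64e-05). Mfap4, another protein of elastic fibres, stood at 5.09, 6.03 and 6.56 in heart Sca1 cells, with replicates 2 and 3 of MSC at the fill value and replicate 1 at -3.43. Tnxb, a tenascin that binds collagen fibrils, was 9.46 ± 0.78 higher. Elastin, Eln, was 9.14 ± 0.74 higher, at intensities of 65408, 53316 and 54428 in heart Sca1 cells, of which the first is at the scanner ceiling, against 74, 209 and 79 in MSC. Elastic fibre genes thus gave 3 of the 4 widest gaps of the list. Among fibrillar collagens the genes differed. Col3a1, the chain of type III collagen, had levels of 4.91, 4.63 and 4.07 in heart Sca1 cells and -1.68, -2.74 and -1.05 in MSC (6.36 ± 0.68, adjusted p = 6.0e-05). Col1a1, a chain of type I collagen, had 4.23, 4.44 and 4.21 in heart Sca1 cells and 3.82, 2.95 and 2.95 in MSC, and this did not pass (1.05 ± 1.01, adjusted p = 0.638). With medians aligned only, 9 matrix genes were called, and when only the 6 arrays were fitted 20 were called higher and 1 lower.

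Small leucine-rich proteoglycans bind collagen and set the width of its fibrils. Of 11 genes, 7 rose in heart Sca1 cells and none fell (median 4.6). Ecm2 had levels of 3.62, 4.14 and 3.60 in heart Sca1 cells and -3.69, -5.17 and the fill value in MSC (8.57 ± 1.00, adjusted p = 0.000111). Aspn, asporin, was 8.14 ± 1.13 higher, Lum, lumican, 7.88 ± 1.55 and Ogn, osteoglycin, 6.05 ± 1.06. Lumican was uneven in MSC, with intensities of 234, 360 and 2, while heart Sca1 cells had 16078, 19499 and 12808.

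Among the genes with the widest gaps, several lay outside the lists. Adamts15, a protease that cuts the proteoglycan versican, had the largest difference of those without fill values, with intensities of 9965, 4873 and 7675 in heart Sca1 cells against 3, 1 and 1 in MSC (11.62 ± 2.27, adjusted p = 0.00427). Scn7a, an atypical sodium channel, had 37542, 40669 and 32480 in heart Sca1 cells and 10, 95 and 8 in MSC (10.60 ± 1.08, adjusted p = 4.14e-05). Tmem100, a membrane protein downstream of BMP signalling in endothelium, had 1483, 2372 and 1772 in heart Sca1 cells and 1 on each MSC array, the lowest whole intensity there is (10.33 ± 0.99). The carboxylesterase gene Ces1d was 10.26 ± 0.90 higher, the neurexin gene Nrxn2 9.48 ± 1.14 and Inmt, an indole methyltransferase, 9.48 ± 1.24. Each of these genes was bright on all 3 heart Sca1 arrays. In MSC, Scn7a, Inmt and Ces1d were highest on replicate 2, at intensities of 95, 33 and 26, where the array median was 173.

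Mesenchymal stem cell markers did not move as a list. Of 20 measured members, 2 rose and 3, Cd44 among them, fell in heart Sca1 cells, with a median of 0.39. Angpt1, a ligand of the receptor Tek, and Ebf3, a stromal transcription factor, were 4.68 ± 0.67 and 2.86 ± 0.75 higher. Grem1, a secreted antagonist of BMPs, had intensities of 374, 42 and 18 in heart Sca1 cells and 21363, 23155 and 21060 in MSC (-8.00 ± 1.14, adjusted p = 0.000478). Prrx2, a homeobox factor of limb and craniofacial mesenchyme, fell by 4.20 ± 0.67. A left-out array lowered the count of genes that rose to 1 in every case but that of heart Sca1 replicate 3, where it stayed at 2. Fitting only the 6 arrays raised it to 5, as did array weights per group, and 3 genes fell under both.

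Of 18 genes of bone, cartilage and fat, 4 fell and 1 rose in heart Sca1 cells (median -0.18). The 1 of 18 is near the 5.3% of all genes called higher. Spp1, which encodes osteopontin, stood at 2.80, 3.15 and 0.38 in heart Sca1 cells, against 8.51, 8.72 and 8.56 in MSC (-6.49 ± 0.65, adjusted p = 3.79e-05). Dlx5, a homeobox factor of bone-forming cells, was -5.84 ± 0.81, Ibsp, bone sialoprotein, -4.87 ± 0.86, and Col2a1, the collagen of cartilage, -4.68 ± 0.76. The second Dlx5 probe gave -3.14. Runx2, the factor that starts bone formation, was level at 4.95, 5.11 and 5.19 in heart Sca1 cells and 5.05, 5.11 and 5.18 in MSC (-0.03 ± 0.63, adjusted p = 0.987). Sp7, a later factor of bone-forming cells, was 4.54 ± 1.22 higher in heart Sca1 cells (adjusted p = 0.029), and that call was lost without any one of the 6 arrays.

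Secreted modulators of Wnt, BMP and IGF signals were uneven. Of 24 genes, 8 rose and 2 fell in heart Sca1 cells (median 1.42), and 2 of 24 is near the 5.01% of all genes called lower. Frzb and Sfrp1, secreted Wnt antagonists, had levels of 7.72, 7.79 and 7.42, and of 7.21, 7.47 and 7.28, in heart Sca1 cells. In MSC they had 1.63, 0.91 and 1.85, and 2.20, 0.32 and 2.16, so that the differences were 6.18 ± 0.79 (adjusted p = 0.000199) and 5.76 ± 1.01 (adjusted p = 0.00216). Igfbp3, which binds insulin-like growth factors, was 6.42 ± 0.53 higher. Besides Grem1, Igfbp2 fell by 3.24 ± 0.74. The number that rose was 5 without heart Sca1 replicate 2 or 3 or MSC replicate 2, and 4 with medians aligned only or with deposited values, and the number that fell was 1 without MSC replicate 1.

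Of 24 growth factor and cytokine receptors, 3 rose and 1 fell (median 1.5), and 1 of 24 is near the 5.01% of all genes called lower. Il6st, the shared receptor chain of the interleukin 6 family, had levels of 7.29, 7.05 and 7.28 in heart Sca1 cells and 3.85, 3.34 and 3.32 in MSC (3.70 ± 0.47, adjusted p = 0.000181). Tgfbr3 and Tgfbr2, receptors of TGF-beta, were 3.43 ± 0.55 and 3.05 ± 0.65 higher, and Tgfbr2 had an adjusted p of 0.0834 under aligned medians and 0.0539 with deposited values. Met, the receptor of hepatocyte growth factor, fell by 5.67 ± 1.25, with heart Sca1 replicate 1 at the fill value. When only the 6 arrays were fitted, 11 receptors were called higher.

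Macrophage genes differed in the other direction. Of 28 measured members, 24 fell in heart Sca1 cells and none rose, with a median of -5.93. Clec4d, a lectin receptor of myeloid cells, had intensities of 4, 20 and 1 in heart Sca1 cells and 16144, 29041 and 12565 in MSC (-11.41 ± 1.00, adjusted p = 1.2e-05). Clec7a, the beta-glucan receptor dectin-1, had 21, 3 and 70 in heart Sca1 cells and 17835, 30473 and 14919 in MSC (-9.81 ± 1.21, adjusted p = 0.000157). Lilrb4a, an inhibitory receptor, was -9.77 ± 1.72 with heart Sca1 replicates 1 and 2 at the fill value. On heart Sca1 replicate 3, Clec7a and Lilrb4a had intensities of 70 and 99, below that array's median of 109.

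Some genes of tissue macrophages, C1qa and Cx3cr1 among them, showed heart Sca1 replicate 3 between the groups. C1qa stood at -3.05, -3.56 and 5.06 in heart Sca1 cells, against 8.11, 7.92 and 7.60 in MSC (-8.39 ± 1.79, adjusted p = 0.00746). Cx3cr1 stood at -1.03, -0.80 and 4.31 in heart Sca1 cells, against 8.39, 7.60 and 7.43 in MSC (-6.98 ± 1.09, adjusted p = 0.000953). On heart Sca1 replicate 3 both genes were well above the other 2 arrays and still below every MSC array. Cd68 and Mpeg1 did not set it apart, at -0.60, 2.08 and 2.18 and at -1.60, 0.90 and 0.84 in heart Sca1 cells. With the 6 arrays normalised and fitted by themselves, C1qa had an adjusted p of 0.0536. Without heart Sca1 replicate 3 the list had 25 members called lower and a median of -6.80, and without replicate 1 it had 20 and -5.10.

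**Figure D3:**
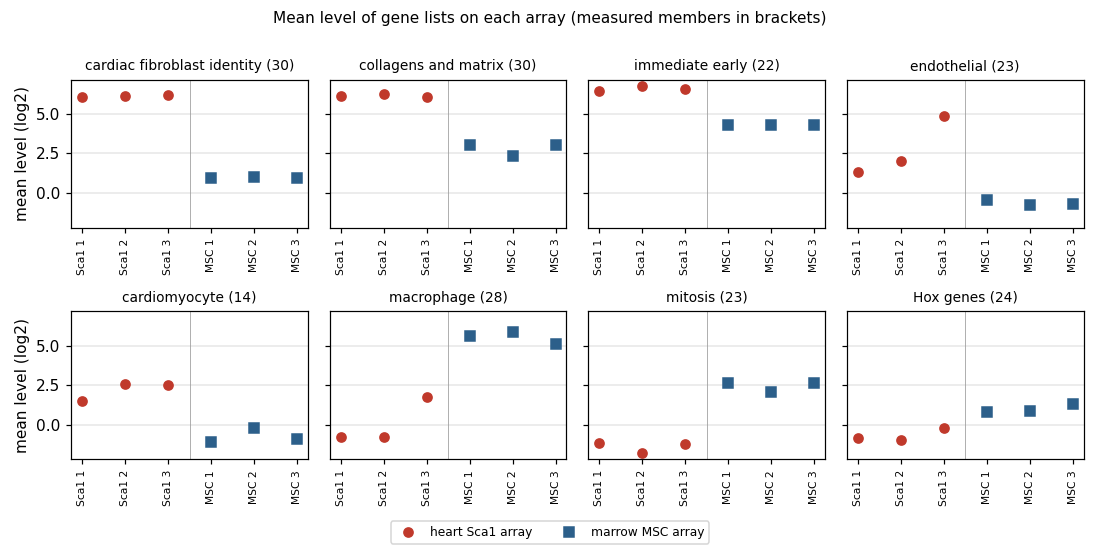
Mean log2 level of the measured members of 8 gene lists on each heart Sca1 array (red circles) and MSC array (blue squares). Heart Sca1 replicate 3 stands above replicates 1 and 2 in the endothelial list (4.86 against 1.31 and 2.01) and the macrophage list (1.77 against -0.78 and -0.81), and the MSC arrays stay at 5.10 to 5.88 in the macrophage list.

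Receptors for antibodies and microbial products followed, with 8 of 17 members lower and none higher (median -2.72). Fcer1g, the signalling chain of several Fc receptors, had levels of 0.76, -0.04 and 1.35 in heart Sca1 cells and 7.41, 7.97 and 7.43 in MSC (-6.91 ± 0.80, adjusted p = 9.96e-05). Fcgr4 and Fcgr3, receptors of immunoglobulin G, were -6.46 ± 0.73 and -5.94 ± 0.66. Tlr13, a receptor of bacterial ribosomal RNA in mice, fell by 5.54 ± 1.07. Fcer1g was also counted in the macrophage list. Fitting only the 6 arrays gave 10 of these receptor genes called lower and 2 called higher.

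The complement list was split, with 2 of 14 members higher and 6 lower (median -2.09). The chains of C1q and the receptors of complement fragments fell, among them C3ar1 with intensities of 6, 7 and 10 in heart Sca1 cells and 7968, 15008 and 4785 in MSC (-9.40 ± 1.40, adjusted p = 0.000656). C1qb, another C1q chain, was -6.53 ± 1.29. C1qa, C1qb and C1qc were also counted in the macrophage list. Cd55, a membrane protein that protects cells from complement, rose by 6.00 ± 1.22, and C3, the central component, by 3.59 ± 0.69. C3 was bright in both groups, at 8.84, 8.79 and 8.87 in heart Sca1 cells and 5.54, 5.41 and 4.80 in MSC.

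Transcription and signalling genes of blood cells fell in 9 of 22 cases and rose in none (median -2.83). Was, the actin regulator missing in Wiskott-Aldrich syndrome of humans, stood at -3.91, -2.89 and 0.70 in heart Sca1 cells, against 5.06, 5.53 and 4.65 in MSC (-7.11 ± 1.15, adjusted p = 0.0012). Btk, a tyrosine kinase of B cells and myeloid cells, was -5.55 ± 0.80, Dock2, which drives leukocyte migration, -4.54 ± 0.82, and the kinase gene Fgr -4.0 ± 0.81. The second Dock2 probe gave -1.69. Of 20 lysosome and phagosome genes, 5 fell and none rose (median -1.09). They were Ctss, a protease of antigen-presenting cells (-7.77 ± 1.23), the oxidase subunits Ncf4 (-6.36 ± 0.77) and Ncf1 (-3.26 ± 0.60), the osteoclast proton pump subunit Atp6v0d2 (-4.66 ± 0.86) and the lysosomal protease Ctsd (-2.97 ± 0.46), whose spots were near the scanner ceiling on 2 MSC arrays. When only the 6 arrays were fitted, 16 blood transcription and signalling genes and 10 lysosome and phagosome genes were called lower, and 9 of the second list were also called lower with trend and robust moderation or with values raised to the 30th percentile.

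Of 7 antigen presentation genes 1 fell, Itgax, the integrin of dendritic cells and some macrophages, with intensities of 22, 18 and 22 in heart Sca1 cells and 3335, 6545 and 4119 in MSC (-7.07 ± 0.79, adjusted p = 8.32e-05). The list's median was -1.85, and 3 members were called lower without heart Sca1 replicate 3. Markers of other blood lineages gave few calls. Of 14 neutrophil genes 1 fell, the gelatinase Mmp9 (-2.63 ± 0.78, adjusted p = 0.0474), and of 13 lymphocyte genes 1 fell, Cd4 (-4.57 ± 1.28, adjusted p = 0.0354), a coreceptor also found on macrophages of some species. The call of Cd4 was lost without any one of the 6 arrays, and that of Mmp9 without any but MSC replicate 3. Their medians were -0.92 and -0.23, and 1 of 14 and 1 of 13 are near the 5.01% of all genes called lower. No mast cell, erythroid or platelet gene of 13 was called (median 0.04), and its widest differences were Epor at -2.67 ± 1.5 and Cpa3 at 2.20 ± 0.89. In limma's test 1 of the 13, Cpa3, had an unadjusted p under 0.05, and array weights per group called it (adjusted p = 0.0197). The defining neutrophil genes S100a8, S100a9, Mpo and Elane were at or below a level of -0.53 on all 6 arrays.

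Of 24 chemokine and chemokine receptor genes, 5 were lower and 2 higher (median -0.49), and 2 of 24 is near the 5.3% of all genes called higher. Ccl4 and Ccl3, chemokines of activated macrophages, were -8.55 ± 1.74 and -4.99 ± 1.22. Ccl4 had an intensity of 1381 on heart Sca1 replicate 3, against 1 and 15 on the other 2 and 20551, 19625 and 6903 in MSC. Cxcr4, a receptor of Cxcl12, and Ccl9 fell by 4.82 ± 1.19 and 4.79 ± 0.85. Ccl11, an attractant of eosinophils, stood at 4.72, 4.90 and 4.91 in heart Sca1 cells, against -0.06, 0.30 and -0.15 in MSC (4.82 ± 0.60, adjusted p = 0.00017), and the neutrophil attractant gene Cxcl1 was 2.72 ± 0.69 higher. The call of Ccl3 was lost without any one array other than heart Sca1 replicate 3. Ccl4 had an adjusted p of 0.0514 when only the 6 arrays were fitted, and 0.0579 when they were also normalised by themselves. The number called lower was 3 without heart Sca1 replicate 1 or any one MSC array, and the number called higher was 1 without any one of the 6 arrays.

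Of 18 cytokines and inflammatory mediators, 2 rose and 3 fell (median -0.29). Il33, an alarm cytokine that stromal cells store in the nucleus, had intensities of 7312, 4812 and 7792 in heart Sca1 cells, while MSC had the fill value on replicates 1 and 2 and 12 on replicate 3 (10.51 ± 1.78, adjusted p = 0.00165). With fill values treated as missing the adjusted p of Il33 was 0.0861. Il6 had 3205, 5670 and 3507 in heart Sca1 cells and 8, 9 and 6 in MSC (8.73 ± 1.63, adjusted p = 0.00327). Tnf, Il1a and Csf1 were lower, at -3.88 ± 0.85, -3.23 ± 0.92 and -2.71 ± 0.46, and the call of Il1a was lost without any one array other than MSC replicate 1.

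Endothelial genes were higher on the heart arrays although the sort removed CD31-positive cells. Of 23 measured members, 9 rose and none fell (median 2.77). Tek, the angiopoietin receptor, had intensities of 8901, 7068 and 8779 in heart Sca1 cells and 13, 14 and 11 in MSC (9.01 ± 0.68, adjusted p = 6.23e-06). Ramp2, a coreceptor of adrenomedullin, was even as well at 6.56, 6.58 and 6.70 in heart Sca1 cells, against -1.29, -0.70 and -0.62 in MSC (7.48 ± 0.58). Ptprb, an endothelial phosphatase, stood at 1.84, 2.06 and 4.73 in heart Sca1 cells, highest on replicate 3, with a difference of 7.47 ± 0.86. Sox7, an endothelial transcription factor, was 7.63 ± 0.81 higher. Vwf, the clotting factor of endothelium, had 0.07, -0.13 and 4.31 in heart Sca1 cells and 1.66, 1.08 and 1.93 in MSC (-0.14 ± 1.15, adjusted p = 0.97). Tek and Ramp2 were thus as high on replicates 1 and 2 as on replicate 3, and Pecam1, Cdh5, Kdr and Vwf were highest on replicate 3. Without that array 5 members were called and the median was 1.39, and 5 were also called without MSC replicate 2 or 3 and 6 without MSC replicate 1.

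Heart muscle genes were higher in heart Sca1 cells. Of 14 measured members, 6 rose and none fell (median 2.89). Tnni3, the inhibitory troponin of heart muscle, stood at 4.64, 5.67 and 5.66 in heart Sca1 cells, against 2.04, 1.52 and 2.05 in MSC (3.45 ± 0.54, adjusted p = 0.000915). Tnnt2, cardiac troponin T, was 3.90 ± 0.99 higher (adjusted p = 0.0207), Tcap, a Z-disc protein, 7.08 ± 1.10, Actc1, cardiac actin, 6.13 ± 1.42, and Mb, myoglobin, 5.93 ± 1.28, whose second probe gave 0.36. MSC replicates 1 and 3 were at the fill value for Tcap, and replicate 1 for Actc1. In cardiomyocytes these genes stood higher, with Tnnt2 at 7.44 and Actc1 at 7.76 in the mean of 2 arrays. Without heart Sca1 replicate 2, 3 members were called. Tnnt2 lost its call without heart Sca1 replicate 2 or 3 or MSC replicate 1 or 2, and Actc1 without heart Sca1 replicate 2 or MSC replicate 1 or 3. The part of heart muscle RNA in the heart Sca1 arrays was not tested.

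Smooth muscle and pericyte genes were split, with 3 of 12 higher and 2 lower (median 0.82). Kcnj8 and Rgs5, genes of pericytes, were 4.69 ± 0.90 and 3.96 ± 0.67 higher in heart Sca1 cells, and Des, the intermediate filament desmin, 3.90 ± 0.57. Rgs5 was highest on heart Sca1 replicate 3, as endothelial genes were, at 4.34, 5.41 and 6.42 in heart Sca1 cells against 0.75, 2.07 and 1.47 in MSC. Acta2, smooth muscle actin, stood at 4.24, 4.18 and 5.52 in heart Sca1 cells, against 8.43, 8.11 and 8.40 in MSC (-3.67 ± 0.87, adjusted p = 0.0149). Tagln, an actin-binding partner, was -6.32 ± 1.80 (adjusted p = 0.0387), with heart Sca1 replicate 1 at the fill value. Neither of these 2 was called without heart Sca1 replicate 1 or 2 or MSC replicate 1 or 3, and Tagln was also not called without MSC replicate 2. No gene of 8 Schwann cell and neural crest genes was called (median -0.02), and the widest differences were Ncam1 at -2.32 ± 0.90 and Ngfr at 1.24 ± 0.83. In limma's test 1 of the 8, Ncam1, had an unadjusted p under 0.05, and it was called with array weights per group (adjusted p = 0.0272).

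**Figure D4:**
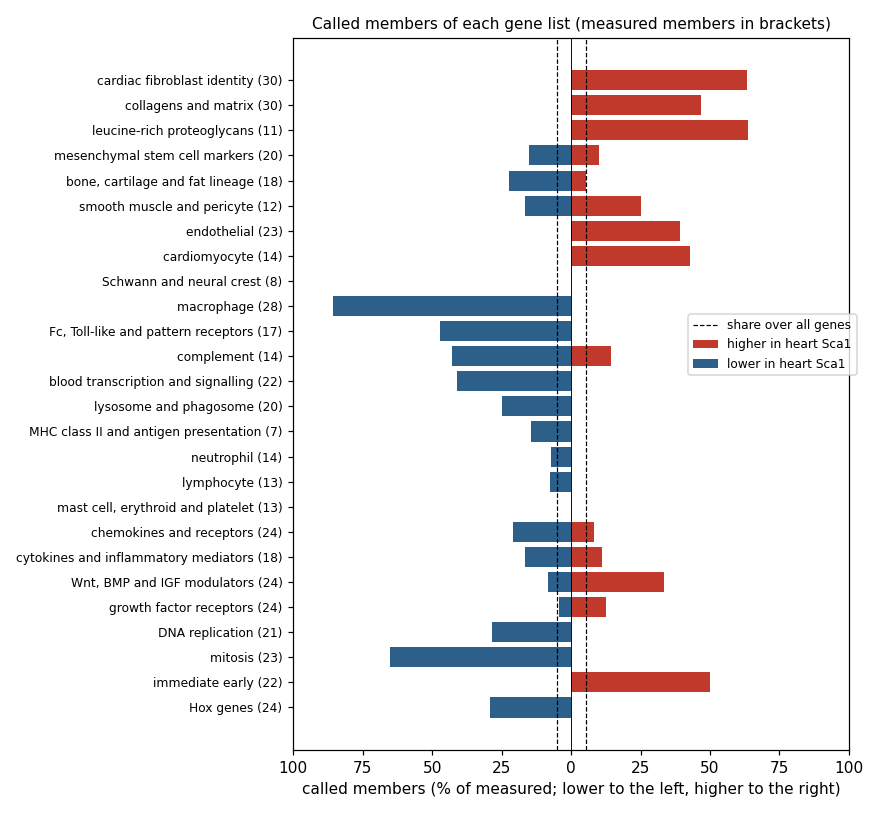
Share of measured members of each gene list called higher (red, to the right) or lower (blue, to the left) in heart Sca1 cells than in MSC, with the shares over all genes of 5.3% and 5.01% as dashed lines. Macrophage genes have 24 of 28 members called lower and fibroblast identity genes 19 of 30 called higher.

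Genes of cell division were lower in heart Sca1 cells. Of 23 mitosis genes, 15 fell and none rose (median -3.77). Bub1, a kinase of the spindle checkpoint, was at the fill value, -6.38 and -3.71 in heart Sca1 cells, against 3.75, 2.76 and 3.28 in MSC (-8.52 ± 0.89, adjusted p = 4.59e-05), while its second probe gave -3.65. Ccna2, the cyclin of S phase and G2, was -8.23 ± 1.23 with heart Sca1 replicate 2 at the fill value, and the cyclin-like Ccnf -8.78 ± 1.30. Foxm1, a transcription factor of mitotic genes, was -6.44 ± 1.28, and Aurka, a spindle kinase, -6.49 ± 1.94, whose call at an adjusted p of 0.0487 was lost without any one array. Mki67, the proliferation marker Ki-67, stood at 2.27, -0.29 and 2.92 in heart Sca1 cells, against 6.33, 5.88 and 6.41 in MSC (-4.58 ± 0.95, adjusted p = 0.00624). Without MSC replicate 3 or 1 the list had 8 or 9 called members.

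Of 21 DNA replication genes, 6 fell and none rose (median -1.74). Mcm5 and Mcm2, subunits of the replicative helicase, were -5.28 ± 0.95 and -4.47 ± 1.08. Mcm10, which helps to start forks, was -6.67 ± 0.79 with heart Sca1 replicates 1 and 3 at the fill value, and Uhrf1, which carries DNA methylation through replication, -5.91 ± 1.26. Without heart Sca1 replicate 2 or MSC replicate 1, 3 genes were called, and Mcm2 also lost its call without MSC replicate 3.

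Immediate early genes, which cells switch on within minutes of a stimulus and which are known to respond to tissue dissociation, were higher in heart Sca1 cells. Of 22 genes, 11 rose and none fell (median 1.94). Fosb, a subunit of the AP-1 factor, was at the scanner ceiling on all 3 heart Sca1 arrays with an intensity of 65447, against 1040, 1375 and 1754 in MSC. Its level in heart Sca1 cells is therefore known only from below, and the fitted log2 difference of 6.05 ± 0.68 depends on the normalisation. Nr4a3 and Nr4a2, orphan nuclear receptors, were 5.20 ± 0.96 and 4.28 ± 0.67 higher, and Btg2, an antiproliferative gene, 5.04 ± 1.05, with 3.29 by its second probe. With medians aligned only 5 genes of the list were called, and 7 with the deposited values.

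Hox genes keep a record of the position along the body axis at which a mesenchymal cell arose, with the posterior genes of the clusters active in the limbs. Of 24 measured genes, 7 fell and none rose in heart Sca1 cells (median -0.75). All 7 belong to the A and C clusters (Hoxa7, Hoxa9, Hoxa10, Hoxc6, Hoxc8, Hoxc9 and Hoxc10). The number that fell was 5 without heart Sca1 replicate 2 or MSC replicate 2 or 3. Fitting only the 6 arrays gave 8 Hox genes called lower and 1 called higher. Hoxc10, a gene of the mouse hindlimb, was at the fill value and at intensities of 33 and 14 in heart Sca1 cells, against 6842, 4613 and 4581 in MSC (-8.51 ± 0.99, adjusted p = 0.000106). Hoxa10 stood at 0.86, 1.09 and 0.57 in heart Sca1 cells, against 6.12, 5.08 and 5.41 in MSC (-4.70 ± 0.92). Hoxa7 and Hoxc6 were -5.49 ± 1.07 and -5.29 ± 0.94. Another homeobox gene, Emx2, known from forebrain, urogenital tract and limb girdles, had intensities of 2, 3 and 2 in heart Sca1 cells and 1892, 2320 and 1041 in MSC (-8.60 ± 0.69, adjusted p = 8.37e-06). Hoxb4 showed no such gap, with the fill value on all 3 heart Sca1 arrays and on MSC replicates 2 and 3 and a difference of 0.24 ± 0.67. The remaining leading genes that fell were Rhov, a small GTPase (-9.72 ± 1.38), Ccdc88b, a protein of leukocytes (-8.22 ± 0.73), and Ms4a7, a tetraspan protein of macrophages (-8.20 ± 1.12).

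The other populations placed the leading genes in context. Scara5, Tcf21, Tbx20, Mfap5 and Inmt were also high in heart side population cells, at means of 5.01, 3.88, 6.28, 7.01 and 5.45 over 2 arrays. They were low in heart c-kit cells at -5.28, -1.38, -0.26, -1.80 and -3.14 over 3 arrays. In cardiomyocytes they lay at 2.65, 0.65, 3.70, 4.06 and 0.77 over 2 arrays. Adamts15, by contrast, averaged only -0.99 in side population cells. Of the other leading genes higher in heart Sca1 cells, Scn7a and Pi16 averaged 7.01 and 6.89 in cardiomyocytes. Adamts15, Tmem100, Nrxn2 and Ces1d averaged 0.25, 1.28, 2.31 and 3.61 there. Over the 938 genes called higher in heart Sca1 cells, the level in side population cells was nearer to heart Sca1 cells than to MSC for 704 (75.1%), and over all genes for 56.3%. For cardiomyocytes the shares were 75.2% (705 genes) and 58.2%. For heart c-kit cells they were 35% and 49.4%, and for marrow c-kit cells 23.2% and 44.6%. Over the 887 genes called lower, the share nearer to heart Sca1 cells was 81.4% for side population cells and 80.7% for cardiomyocytes. It was 68.1% for heart c-kit cells and 41.8% for marrow c-kit cells. Correlations over genes of heart Sca1 arrays with cardiomyocyte arrays were 0.822 to 0.933, the highest above those between heart Sca1 arrays, and with side population arrays 0.757 to 0.776. Of the genes called lower, Clec7a, C3ar1, Rhov, Emx2 and Ms4a7 averaged at most 0.23 in each of the 4 other populations, whereas Ccnf averaged 4.37 and Ccdc88b 3.90 in marrow c-kit cells. These are descriptions, since genes called between heart Sca1 cells and MSC are extreme there by choice.

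**Figure D5:**
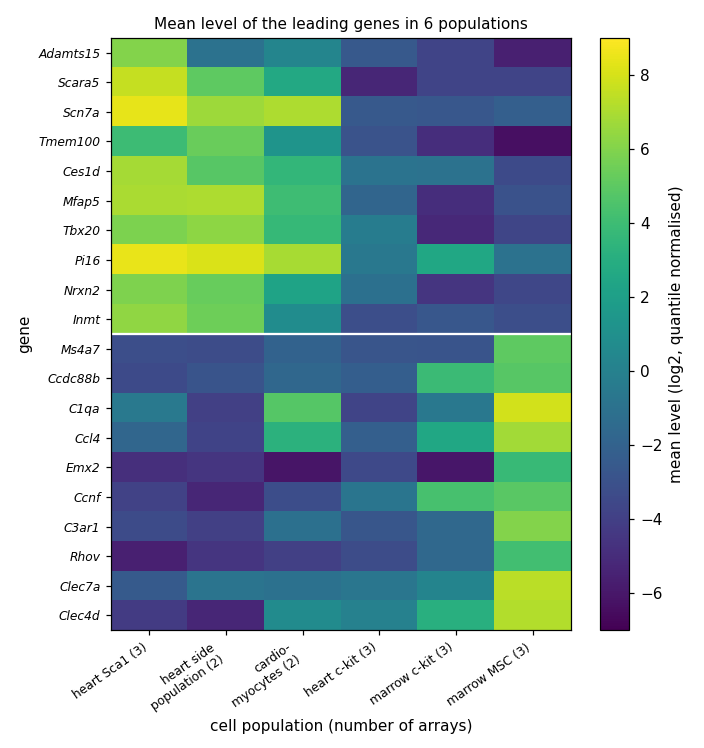
Mean log2 level (colour scale) of the 10 highest and 10 lowest leading genes in the 6 populations, with heart Sca1 cells in the first column and MSC in the last and the number of arrays in brackets. Side population cells share the high levels of most genes of the upper block with heart Sca1 cells (Pi16 at 8.11), and Emx2 is high only in the MSC column among these 6 populations.

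Promoters were read because macrophage genes moved together. RefSeq windows (GRCm38.p6) from 250 bases before to 50 after the start were found for 13980 of the measured genes, in 17303 windows. The letters GAGGAAG, within the known motif of the blood factor PU.1, occurred on either strand in 8 of 23 windows of the macrophage list (34.8%), in 5 of 23 windows of the blood transcription list (21.7%), in 18% of windows of genes called lower, in 12.3% of windows of genes called higher and in 13.3% of all windows. The E-box letters CAGCTG, which read the same on both strands, occurred in 16.1% of windows of genes called lower, 21.7% of windows of genes called higher and 16.5% of all. The AP-1 letters TGACTCA occurred in 5.79%, 5.21% and 4.51%. In the macrophage list CAGCTG was held by 26.1% and TGACTCA by 8.7% of windows, both also above their shares of all windows. GAGGAAG was held by 17.4% of windows of the matrix list and 15% of the fibroblast identity list. A match describes letters and no binding site.

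Stretches of 170 bases, from 150 before the start to 20 from it, are shown on the strand of the gene for 3 genes that fell and 2 that rose, to set such matches beside the levels, and these genes were chosen after the matches were seen. Capitals mark GAGGAAG or its reverse complement, except in Inmt, where they mark CAGCTG.
Fcgr4, chr1:171018776-171018945, plus strand: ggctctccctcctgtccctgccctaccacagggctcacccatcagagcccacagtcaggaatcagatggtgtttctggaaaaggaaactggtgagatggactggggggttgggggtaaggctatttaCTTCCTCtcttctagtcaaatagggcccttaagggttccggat
Dock2, chr11:34783886-34784055, minus strand: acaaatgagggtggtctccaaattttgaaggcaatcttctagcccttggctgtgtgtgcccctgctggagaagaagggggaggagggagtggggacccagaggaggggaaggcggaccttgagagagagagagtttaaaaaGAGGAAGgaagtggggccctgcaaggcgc
Ctss, chr3:95526636-95526805, plus strand: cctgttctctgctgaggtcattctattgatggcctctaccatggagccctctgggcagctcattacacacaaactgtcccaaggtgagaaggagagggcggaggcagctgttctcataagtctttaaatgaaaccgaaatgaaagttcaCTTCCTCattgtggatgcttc
Pi16, chr17:29318732-29318901, plus strand: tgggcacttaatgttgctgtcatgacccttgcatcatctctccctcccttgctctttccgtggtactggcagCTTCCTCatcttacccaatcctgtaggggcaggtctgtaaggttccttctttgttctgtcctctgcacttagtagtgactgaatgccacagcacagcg
Inmt, chr6:55174971-55175140, minus strand: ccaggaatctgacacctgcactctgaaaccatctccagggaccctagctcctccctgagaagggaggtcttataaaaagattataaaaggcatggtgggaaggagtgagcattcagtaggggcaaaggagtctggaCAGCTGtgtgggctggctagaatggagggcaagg
The match begins 23, 9 and 1 bases before the start in Fcgr4, Dock2 and Ctss, all lower in heart Sca1 cells. Pi16 carries the same letters 78 bases before its start and was higher in heart Sca1 cells. The E-box letters of Inmt begin 14 bases before its start.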

How the data were processed

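Per the labels' protocols, total RNA of 16 samples was turned into cDNA with WT-Ovation Pico and carried Cy5, the single dye used on a platform made for 2 colours. In the deposited table, 26423 probes have log2 intensities that the authors centred on each array's mean, as read from the values: array means were 0 within 0.001 on all arrays but MSC replicate 3, at 0.300. Raised back to intensities, all spots under 200 were whole numbers within 0.005. How background was corrected and when the fill value was set is not given in the sources used. The number of arrays limits the precision.

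Array medians spanned 1.45 log2 units, over the 0.5 allowed, so all 16 arrays were quantile normalised. GEO's platform table named 20377 probes, of which 18213 matched a current GRCm38.p6 symbol, 2126 a synonym and 38 were ambiguous. The probe with the highest mean stood for each of 17710 genes. limma 3.58.1 in R 4.3.3 fitted 6 group means to 16 arrays, with Benjamini-Hochberg adjustment over all genes, and the code was tested on simulated data. Intensities within 5% of an array's brightest spot were counted as near the scanner ceiling. Replicate numbers did not pair arrays (correlations of deviations -0.02, 0.07 and 0.03).

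The members, the 26 gene lists and the tests were chosen with earlier results of these data known, so list counts are descriptions. Some genes belong to several lists, Fcer1g, C1qa, Cx3cr1, Dcn and Igfbp3 among them, so the lists are not independent of each other. Genes named are the sort and cell markers, the 10 highest and 10 lowest called genes without fill or ceiling spots, and up to 4 called members of each list, or the 2 widest where none was called. Ebf3, Sp7, C3, Ctsd, Cxcl1, Ccl9, Cxcr4, Csf1, Igfbp2, Gata4, Gata6, Hand2, Meox1, Wt1, Tbx18, Runx2, Mki67, Hoxa9, Hoxc8, Hoxc9 and Hoxb4 were chosen after their values were seen.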

Additional observations from a re-analysis of the deposited data

How the results depend on the processing

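The count of 1825 called genes moved to 3860 when only the 6 arrays were fitted, to 3801 when they were also normalised by themselves and to 4259 with array weights per group. Leaving out an array at a time gave 1146 to 1375 genes. The other alternatives gave 1333 (medians aligned only), 1457 (deposited values), 1751 (lowest 30% of genes left out), 2360 (values raised to the 30th percentile), 1905 (fill values treated as missing), 1827 (mean over probes) and 2064 (trend and robust moderation). The replicate block gave 1727 genes, of which 1642 were called the same way without it, and of the named genes Tagln and Aurka lost their call under it. Of the 98 named genes called, 89 to 98 remained called under each alternative, and no called one changed sign. The median of all genes was -0.10 as reported, -0.20 with deposited values, -0.16 with medians aligned only and 0.00 with values raised to the 30th percentile. Of the 1825 called genes, 290 had at least 1 of 6 arrays at the fill value.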
